A study of Mus musculus with 12 samples.

Results

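The Bmal1 arm of the circadian clock and its nuclear receptors comprised 7 genes here, Arntl (also named Bmal1), Clock, Npas2, Nr1d1, Nr1d2, Rora and Rorb. They were chosen by name, as the retinal genes whose products switch the other clock genes on or set the level of Arntl itself. Each symbol matched 1 of the 54532 genes counted, and all 7 passed the filter on low counts that left 18299 genes to test. Retinal mRNA had been sequenced from wild type C57BL/6 mice, female and 13 weeks old at dissection, in 4 groups of 3 libraries. SHAM mice were sham controls. MOG mice had been immunized with the MOG35-55 peptide of myelin oligodendrocyte glycoprotein in complete Freund's adjuvant with pertussis toxin, which induces experimental autoimmune encephalomyelitis with optic neuritis. GB20 and GV16 mice had received the same immunization and were then needled repeatedly, under xylazine and ketamine, at acupoint GB20 or at GV16, which served as the control acupoint. Whether SHAM and MOG mice were anaesthetized is not given in the sources used here. The experiment was run 3 times with 2 or 3 mice in each group, and the libraries are described as biological replicates. Whether a library pooled those mice, whether a replicate number marks a run, and the time of day at dissection, which the level of several of these genes follows, are not stated in the sources used here. The p-values below measure the spread between these libraries.

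BMAL1, the product of Arntl, pairs with CLOCK or with its relative NPAS2, and the pair binds E-boxes in the DNA to activate the Per, Cry and Nr1d genes, among many others. The REV-ERB proteins from Nr1d1 and Nr1d2 repress Arntl, whereas the ROR proteins from Rora and Rorb activate it, both through the same short response elements. The mammalian retina holds its own clock, and Rorb is also required for the development of rod photoreceptors.

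The response elements through which REV-ERB and ROR proteins act on Arntl are shown first, because they tie the receptors of this group to the gene at its head. Arntl lies on chromosome 7, and both elements were found on its forward strand beside its annotated starts, at chr7:113207485-113207514 and chr7:113207528-113207557 of GRCm38.p6 (RefSeq). Capitals mark the match to the known REV-ERB and ROR response element of this promoter (RORE), in which the search allowed any base at 1 position, the last but 1.
Arntl element 1: ggagcggattggtcggAAAGTAGGTTAgtg
Arntl element 2: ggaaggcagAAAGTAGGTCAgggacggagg
The match was rare, being held by 20 of 32851 promoter windows of the mouse (0.0609%, either strand, 250 bases before to 50 after a start), and among the 7 genes it was found in Arntl alone. The searched letters were those of the known Arntl element, so its presence in Arntl was set by that choice. Looser forms of the full element were not searched, so the other genes may hold them. The shorter AGGTCA, the core of the known site of many nuclear receptors, was in 16.3% of all windows and in 18.1% of genes with any window counted. Of the 7 genes it was in Arntl, where it overlaps the longer match of element 2, Clock and Nr1d2. The Nr1d2 copy is printed from chr14:18239166-18239195 on the reverse strand, with AGGTCA in capitals.
Nr1d2: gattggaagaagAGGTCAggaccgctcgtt
The E-box CACGTG was in 7.15% of all windows and in 0 of the 11 windows of the 7 genes. With any window of a gene counted, it was in 6 of the 24 other clock genes that had a window, beside 8.09% of all genes. Ciart, a repressor of BMAL1 and CLOCK, held 3 E-boxes in its window, shown in capitals from chr3:95882257-95882354 on the reverse strand, for comparison.
Ciart: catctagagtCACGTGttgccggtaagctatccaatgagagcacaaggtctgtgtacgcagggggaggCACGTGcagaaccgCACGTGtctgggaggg
These matches describe the letters of the windows and were not measured as binding.

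The libraries held between 15860278 and 19194280 counts. Marker lists of rods, cones, bipolar, amacrine, horizontal, ganglion and Muller cells were counted in full in every library, so the tissue matched its label. The summed level of 5 ganglion cell markers was 536.65 to 599.19 CPM (counts scaled to a common library total) in SHAM, 306.1 to 364.13 in MOG, 375.23 to 387.18 in GB20 and 285.67 to 412.45 in GV16, and that of 5 pigment epithelium markers was 15.0 to 21.5 in SHAM, 29.8 to 42.9 in MOG, 31.6 to 37.5 in GB20 and 17.4 to 52.8 in GV16. The 5 Muller cell markers summed to 2642 to 2954 CPM in MOG, below SHAM (2998 to 3237) and GV16 (3001 to 3159) without overlap, and the 5 cone markers to 1163 to 1220 in MOG, below GB20 (1288 to 1343). The 5 bipolar cell markers summed to 846 to 889 CPM in GB20, below MOG (916 to 957) without overlap. The part of these markers in the results was not tested. In whole retina, fewer cells of a type and less RNA per cell cannot be told apart. In SHAM replicate 2 the level relative to the other libraries fell with gene length (Spearman correlation -0.345 across 16143 genes, which are not independent), and it also fell in GB20 replicates 1 and 2 (-0.255 and -0.224). It rose with length in SHAM replicate 3 (0.229) and in all 3 MOG libraries (0.0975 to 0.151). The fitted difference itself followed length with a Spearman correlation of 0.205 in MOG vs. SHAM, -0.247 in GB20 vs. MOG and -0.235 in GB20 vs. GV16 across 16051 genes. The correlation was 0.157 in GV16 vs. SHAM, -0.0862 in GV16 vs. MOG and -0.0176 in GB20 vs. SHAM. Clock, Rora and Rorb are longer than 96.6%, 96.1% and 93.4% of the 16143 genes given above, and Nr1d1 is longer than 36.1%.

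Levels between genes were compared in FPKM, which is scaled for gene length and library total. The 7 genes formed 4 steps that did not overlap across the 12 libraries. Nr1d1 (mean of 12 libraries 53.6 FPKM) and Nr1d2 (51.6) were at the top, followed by Rorb (26.9) and Rora (20.9), then by Arntl (13.7) and Clock (12.6), and Npas2 (0.637) was at the bottom. Within each of the upper steps the ranges of the members overlapped, for example 43.5 to 62.1 FPKM for Nr1d1 and 47.7 to 55.9 for Nr1d2. The lowest Rora library (16.2) was above the highest Arntl library (14.6). Npas2 was above only 15.9% of the tested genes in its level, and Nr1d1 was above 96.6%.

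**Figure D1:**
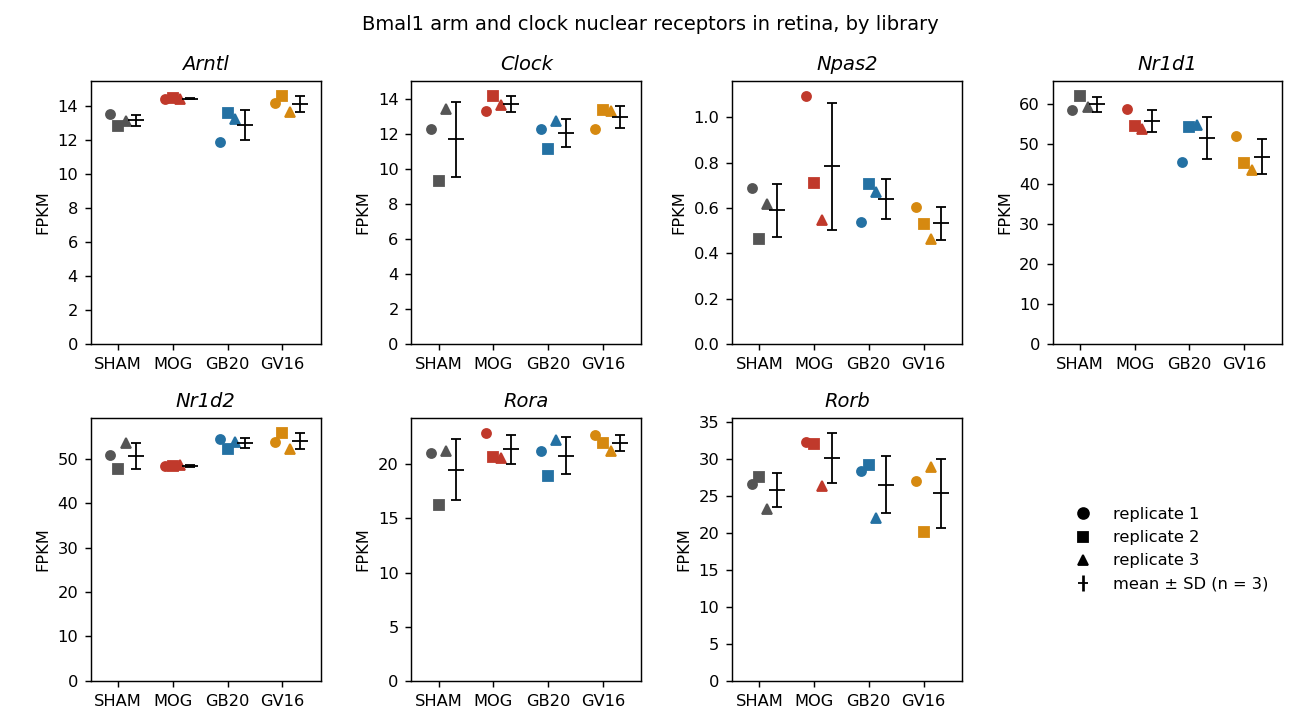
FPKM (y axes, from 0) of the 7 genes in each library of the 4 groups (x axes); symbols are replicates 1 to 3, and bars are the mean ± SD (n = 3). Nr1d1 declines from 60.0 in SHAM to 47.0 in GV16, by its means, whereas Arntl stays between 11.9 and 14.6 and Nr1d2 between 47.7 and 55.9 in all libraries.

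Arntl had the steadiest level of the activators, although its group means were ordered. It measured 102.6, 97.3 and 99.5 CPM in the SHAM libraries and 108.7, 110.3 and 109.3 in those of MOG. GB20 libraries measured 90.6, 102.6 and 99.8 CPM and GV16 libraries 106.9, 110.8 and 103.2. All 3 MOG libraries were thus above all SHAM and all GB20 libraries, and overlapped those of GV16. The fitted log2 difference was 0.13 (SE 0.067) for MOG vs. SHAM and -0.16 (SE 0.067) for GB20 vs. MOG, and neither passed the edgeR quasi-likelihood F test (Benjamini-Hochberg adjusted p = 0.405 and 0.525). GB20 lay 0.03 below SHAM on the log2 scale (95% interval -0.17 to 0.11). In GV16 vs. MOG the difference was -0.03 with an interval from -0.17 to 0.11. By their means the groups ran MOG, GV16, SHAM, GB20, and of these neighbours GV16 and SHAM were the only pair whose libraries did not overlap.

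Clock, the partner of Arntl, varied most in SHAM, where its libraries measured 170.8, 129.4 and 186.7 CPM. The other groups were closer together, with 183.7, 197.1 and 189.2 CPM for MOG, 171.4, 154.1 and 175.5 for GB20, and 169.4, 185.6 and 184.0 for GV16. The low SHAM library was replicate 2, the library in which long genes were low, and all GB20 libraries were below all MOG libraries. MOG exceeded SHAM by 0.23 on the log2 scale (SE 0.0972; edgeR, Benjamini-Hochberg adjusted p = 0.316), by 0.15 with offsets for gene length and by 0.09 to 0.34 when 1 library was left out. GB20 vs. MOG gave -0.19 (95% interval -0.39 to 0.02), or -0.11 with offsets for gene length.

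Npas2 had a low level, with 36 to 94 counts per library. MOG replicate 1 held the 94 counts (95% Poisson interval 76.0 to 115, counting error only), against 56 and 44 in the other MOG libraries and 38 to 55 in SHAM. In GV16 the counts were 47, 40 and 36. The fitted GV16 vs. MOG difference of -0.56 (95% interval -1.06 to -0.06) did not pass the test (edgeR, Benjamini-Hochberg adjusted p = 0.905). It rested in large part on MOG replicate 1, since it was -0.24 without that library, and it was -0.21 on the log2(FPKM + 1) scale. The groups overlapped in every comparison of Npas2.

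Nr1d1, which encodes the repressor REV-ERB alpha, was a DEG (adjusted p under 0.05, whatever the fold change) in 1 of the 6 comparisons, and the other members in 0. It measured 181.9, 192.8 and 184.4 CPM in the SHAM libraries, 181.7, 170.3 and 167.0 in those of MOG, 142.2, 168.1 and 169.1 in those of GB20 and 160.8, 140.9 and 134.7 in those of GV16. Every SHAM library was above every GB20 and GV16 library, and every GV16 library was below every MOG library. SHAM and MOG met, since the lowest SHAM library (181.9 CPM) was just above the highest MOG library (181.7 CPM) while on the FPKM scale it was just below it (58.6 against 58.9). Nr1d1 was down-regulated in GV16 vs. SHAM by 0.36 on the log2 scale (SE 0.0797, 95% interval -0.52 to -0.19, Benjamini-Hochberg adjusted p = 0.0334 in edgeR), where 0.656% of all genes tested were DEGs and 0.432% were down-regulated ones. The call was lost when GV16 replicate 3 (adjusted p = 0.302), GV16 replicate 2 (0.196), SHAM replicate 1 (0.109) or SHAM replicate 2 (0.0665) was left out, with differences of -0.30 to -0.38. It was also lost without MOG replicate 2 (0.0666) or MOG replicate 3 (0.0646), with a difference of -0.36 in both. With offsets for gene length the difference was smaller, at -0.32, and was still called (edgeR adjusted p = 0.032). Of the Nr1d1 exons, 8.55% overlap those of Thra on the opposite strand, and whether the counting used strand is not given in the sources used here.

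The other Nr1d1 differences ran the same way and did not pass the test. GB20 vs. SHAM gave -0.22 (SE 0.0794, adjusted p = 0.33, and -0.15 without GB20 replicate 1), GV16 vs. MOG -0.25 (SE 0.0797, adjusted p = 0.566) and MOG vs. SHAM -0.11 (SE 0.0793, adjusted p = 0.588, and -0.06 with offsets for gene length), each Benjamini-Hochberg adjusted in edgeR. The 2 needled groups differed by 0.14 (95% interval -0.03 to 0.30). Thra, the thyroid hormone receptor gene that shares the locus, had a GV16 vs. SHAM difference of -0.15 (SE 0.0766, edgeR adjusted p = 0.502).

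Nr1d2 encodes REV-ERB beta, a repressor that acts on the same elements, and it was not a DEG in any comparison. It measured 277.4, 260.3 and 292.2 CPM in the SHAM libraries, 262.0, 263.9 and 265.5 in those of MOG, 298.6, 283.8 and 291.4 in those of GB20 and 291.6, 305.3 and 283.9 in those of GV16. All 6 libraries of needled mice were above all 3 MOG libraries, while SHAM overlapped both. The log2 difference from MOG was 0.14 for GB20 (95% interval 0.003 to 0.28) and 0.15 for GV16 (0.01 to 0.29), with Benjamini-Hochberg adjusted p = 0.619 and 0.905 in edgeR. Unlike these p-values, the intervals are not adjusted for the number of genes tested. GB20 and GV16, which were compared with the same MOG libraries, differed from each other by 0.01 (interval -0.15 to 0.13).

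Rora encodes a receptor that activates Arntl through the elements printed above. It measured 278.0, 214.1 and 279.7 CPM in the SHAM libraries, 300.5, 272.9 and 271.4 in those of MOG, 280.7, 248.4 and 291.7 in those of GB20 and 297.7, 290.0 and 278.5 in those of GV16. The lowest value was again that of SHAM replicate 2, and the groups overlapped in every comparison. Its largest difference was 0.17 for GV16 vs. SHAM (95% interval -0.02 to 0.35, edgeR adjusted p = 0.517), which was 0.10 with offsets for gene length and 0.05 without SHAM replicate 2.

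Rorb, the relative of Rora that is the better known of the pair in retina, had the widest spread of the nuclear receptors. Its libraries measured 297.0, 307.5 and 259.3 CPM in the SHAM libraries, 358.8, 358.0 and 293.7 in those of MOG, 318.9, 324.2 and 244.9 in those of GB20 and 300.9, 225.2 and 321.8 in those of GV16. In each group 1 library stood below the others, and the groups overlapped in every comparison. The difference was 0.23 for MOG vs. SHAM (95% interval -0.07 to 0.52) and -0.25 for GV16 vs. MOG (-0.55 to 0.04). Both intervals included 0, and neither difference passed the test (edgeR, Benjamini-Hochberg adjusted p = 0.511 and 0.992). Leaving out 1 library gave 0.15 to 0.32 for the first and -0.36 to -0.11 for the second, which was -0.11 without GV16 replicate 2.

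**Figure D2:**
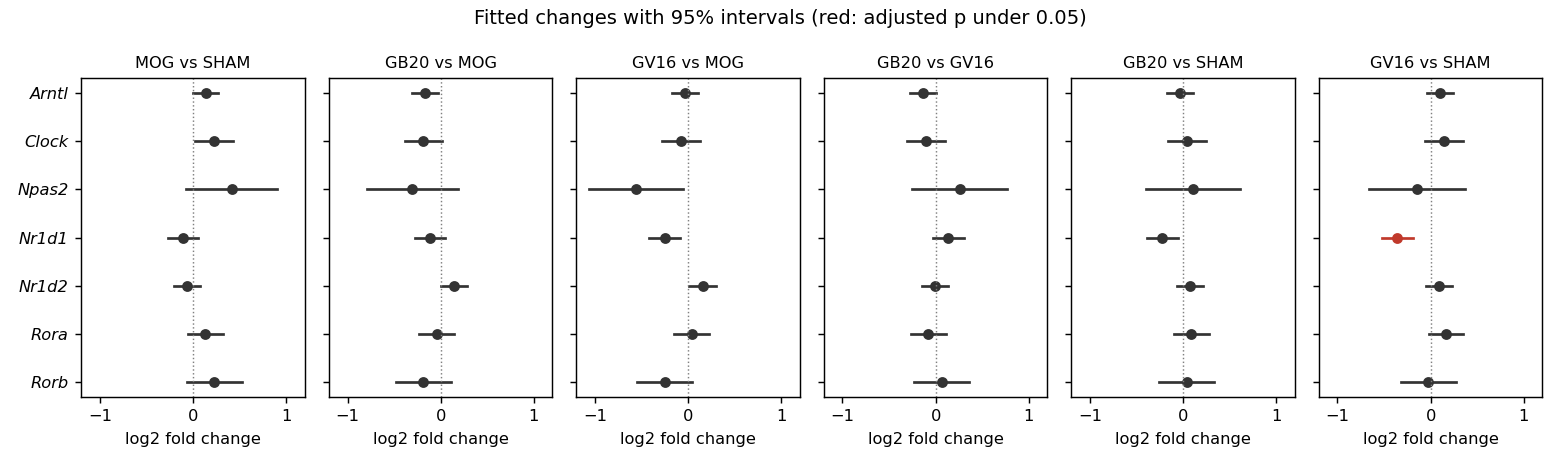
Fitted log2 fold change (x axes) of each of the 7 genes (y axis) in the 6 comparisons; points are estimates, lines are 95% intervals, and red marks an adjusted p under 0.05. Nr1d1 in GV16 vs. SHAM (-0.36) is the only red point, and the intervals of Npas2 are the widest.

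In MOG vs. SHAM, immunized against sham mice, 0 of the 7 genes were DEGs by edgeR, where 1.34% of all genes tested were. Clock alone had an unadjusted p under 0.05, and DESeq2 and limma-voom also called 0. In CPM, MOG lay above SHAM for Arntl and, by the small margin given above, below SHAM for Nr1d1 without overlap, 2 of 7 beside 16.2% of all genes tested. The median size of the 7 log2 differences was 0.13, against 0.12 over all genes tested.

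In GB20 vs. MOG, needled against not needled immunized mice, again 0 of the 7 genes were DEGs by edgeR, with 0.24% over all genes tested. Needling and its anaesthesia cannot be told apart here, because the anaesthesia of MOG mice is not given. Arntl and Nr1d2 were the 2 with an unadjusted p under 0.05, and DESeq2 and limma-voom called 0. Without overlap between the groups were 3 of 7, Arntl and Clock below MOG and Nr1d2 above it, beside 15.7% of all genes tested. In size the 7 differences had a median of 0.165, against 0.108 over all genes tested.

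GV16 vs. MOG is the same comparison for the control acupoint, with the same limit. In it 0 of the 7 genes were DEGs by edgeR and 0.164% of all genes tested were. Nr1d1, Npas2 and Nr1d2 were the 3 with an unadjusted p under 0.05, and the other tools called 0 as well. Nr1d1 lay below MOG and Nr1d2 above it without overlap, 2 of 7 beside 12.6% of all genes tested. The median size was 0.15, against 0.09 over all genes tested.

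Between the needled groups, GB20 vs. GV16, 0 of the 7 genes were DEGs by edgeR (0.00546% of all genes tested), 0 had an unadjusted p under 0.05, and DESeq2 also called 0. Arntl was the 1 of 7 without overlap, lower in GB20, beside 8.34% of all genes tested. Outside Npas2, no 95% interval reached beyond 0.36 on the log2 scale in either direction.

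The needled groups were also set against SHAM. In GB20 vs. SHAM, 0 of the 7 were DEGs by edgeR, with 0.344% over all genes tested, Nr1d1 was the 1 with an unadjusted p under 0.05, and it was the 1 of 7 without overlap beside 12.7% of all genes tested. In GV16 vs. SHAM, Nr1d1 was the 1 DEG, and it and Arntl, which was higher in GV16, were the 2 of 7 without overlap beside 14.5%. DESeq2 and limma-voom called the same 1 gene in GV16 vs. SHAM and 0 in GB20 vs. SHAM.

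The remaining clock genes were counted as a list of 31, all of which were tested, and they include the targets and repressors of BMAL1 and CLOCK. In MOG vs. SHAM 3 of 31 were down-regulated and 0 upregulated, namely Ciart (-0.85), Dbp (-0.50), an output factor driven by E-boxes, and Bhlhe40 (-0.35), a repressor that binds E-boxes, where 0.771% of all genes tested were down-regulated. In GB20 vs. MOG 6 of 31 were upregulated, namely Ciart (1.16), the period genes Per2 (0.70) and Per1 (0.53), Dbp (0.43), the cryptochrome gene Cry1 (0.40) and Bhlhe40 (0.39), and 0 were down-regulated, where 0.0984% of all genes tested were upregulated. In GV16 vs. MOG 3 of 31 were upregulated, namely Ciart (0.79), Per2 (0.62) and Cry1 (0.37), where 0.0656% of all genes tested were upregulated. These are log2 differences, and the comparisons share the MOG libraries. Several of the calls rested on single libraries. In GB20 vs. MOG the count was 2 without MOG replicate 2 or GB20 replicate 2, and 3 without MOG replicate 1 or GB20 replicate 3. Of the 12 fits that left out 1 library, Ciart and Per2 were called in 12, Dbp in 10, Cry1 in 7, Per1 in 6 and Bhlhe40 in 5. Per1 was not called with offsets for gene length (edgeR adjusted p = 0.0782). In GV16 vs. MOG the count was 0 without MOG replicate 1 and 1 without MOG replicate 3 or any 1 of the GV16 libraries, and Cry1 was called in 3 of the 12 fits. Bhlhe40 in MOG vs. SHAM was called in 7 of the 12.

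Between the needled groups and SHAM the list held at most 1 DEG. Dbp was the 1 of 31 called in GV16 vs. SHAM (-0.43), with 0 called without GV16 replicate 3, and 0 of 31 were called in GB20 vs. SHAM or GB20 vs. GV16 by edgeR, where 7 and 4 had an unadjusted p under 0.05 and DESeq2 on 12 libraries called 0 and 1. With a replicate block, 1 of 31 was called in GB20 vs. SHAM, Usp2 (0.55, edgeR adjusted p = 0.0104), a deubiquitinase gene that was named after its values were seen, and DEGs over all genes numbered 182 against 63. The median log2 difference of the 31 genes was -0.01 in MOG vs. SHAM and 0.06 in GB20 vs. MOG. That of the 7 genes was 0.13 and -0.16. In GV16 vs. MOG the medians were 0.07 for the 31 genes and -0.08 for the 7, and in GB20 vs. GV16 0.03 and -0.01. They had the same sign in GB20 vs. SHAM (0.05 and 0.04) and GV16 vs. SHAM (0.05 and 0.09). In MOG vs. SHAM, GB20 vs. MOG, GB20 vs. GV16 and, less strongly, GV16 vs. SHAM the differences followed gene length, as given above. Clock, Rora and Rorb are long genes, and Nr1d1 is shorter than most. Whether the 7 genes and the other 31 differed in their change was not tested.

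**Figure D3:**
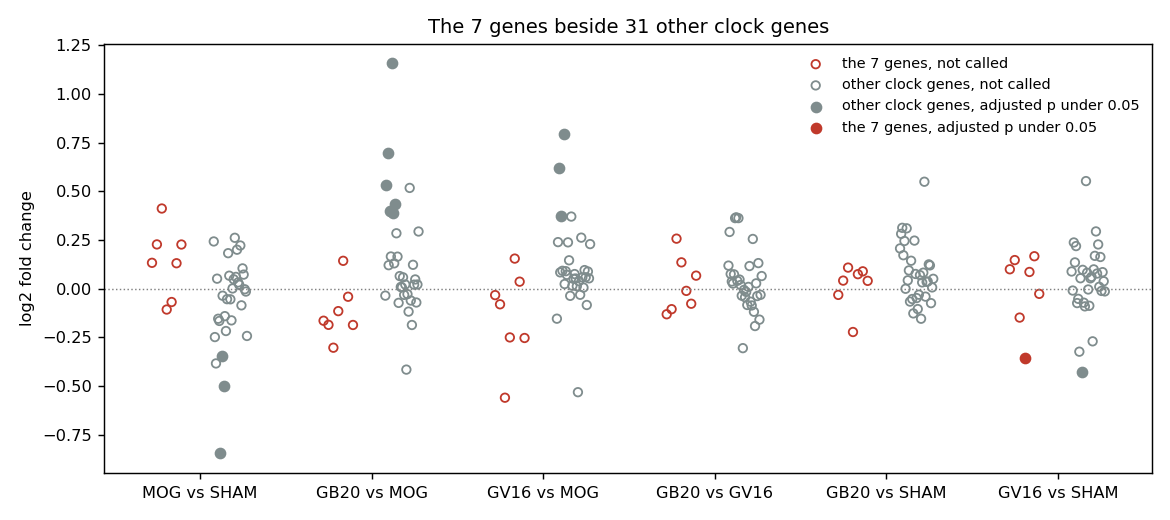
Log2 fold change (y axis) of the 7 genes (red) and of 31 other clock genes (grey) in the 6 comparisons (x axis); filled circles have an adjusted p under 0.05. The filled grey circles in the comparisons with MOG reach 1.16 (Ciart), whereas no red circle is filled except Nr1d1 in GV16 vs. SHAM.

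Ratios of FPKM within a library were taken as a description, since both genes of a ratio then share the library's scaling. Nr1d1 over Nr1d2 was 1.15, 1.30 and 1.11 in the SHAM libraries and 1.22, 1.14 and 1.11 in those of MOG. It was 0.837, 1.04 and 1.02 with needling at GB20 and 0.969, 0.812 and 0.834 with needling at GV16. All 6 libraries of needled mice were below all 6 libraries of mice without needling. Arntl over Nr1d2 was between 0.296 and 0.300 in MOG and between 0.218 and 0.269 in the other 9 libraries. Arntl over Nr1d1 was 0.206 to 0.231 in SHAM, 0.245 to 0.268 in MOG, 0.241 to 0.260 in GB20 and 0.272 to 0.321 in GV16, with SHAM below and GV16 above all other libraries. Arntl over Clock, Rora over Rorb and Clock over Npas2 were also taken, and their groups overlapped in every comparison. Arntl over Clock, for example, was 0.973 to 1.37 in SHAM and 0.964 to 1.22 in GB20. How often other pairs of genes separate the groups was not counted. These ratios were chosen with the levels in view and no test was made of them.

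**Figure D4:**
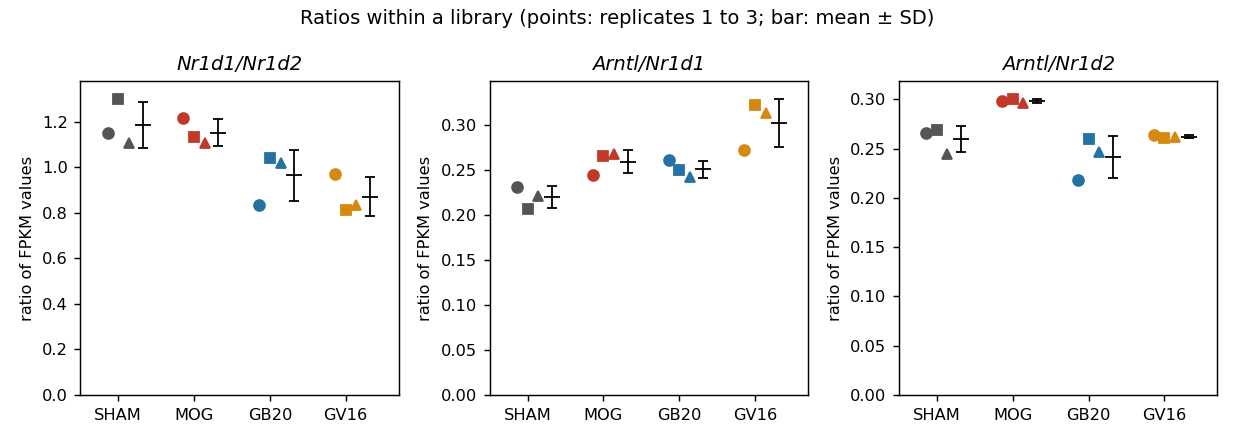
Ratios of FPKM values (y axes, from 0) in each library of the 4 groups (x axes); symbols are replicates 1 to 3, and bars are the mean ± SD (n = 3). Nr1d1/Nr1d2 is at least 1.11 in SHAM and MOG and at most 1.04 in GB20 and GV16.

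Across the 12 libraries, the 21 pairs of the 7 genes were compared on log2 CPM, and 0 passed a 2-sided permutation test after Benjamini-Hochberg adjustment over the pairs. Nr1d1 and Nr1d2 had Pearson's r = -0.609 (permutation p = 0.0385, adjusted 0.27) and Spearman's rho = -0.566 (permutation p = 0.059, adjusted 0.472), with r = -0.578 after the 2 libraries farthest from the median of Nr1d1 were left out. Nr1d2 and Rorb had r = -0.649 (permutation p = 0.0221, adjusted 0.232) and rho = -0.552 (permutation p = 0.0674, adjusted 0.472), with r = -0.612 without the 2 libraries farthest from the median of Nr1d2. Clock and Rora had r = 0.799 (permutation p = 0.0127, adjusted 0.232) but rho = 0.105 (permutation p = 0.747, adjusted 0.851). Their r was -0.426 without the 2 libraries farthest from the median of Clock, so that this relation rests on those libraries. In every pair the libraries left out were set by the first gene named alone. Within groups, as deviations from the group means, 0 of the 21 pairs passed an exact permutation test after adjustment.

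**Figure D5:**
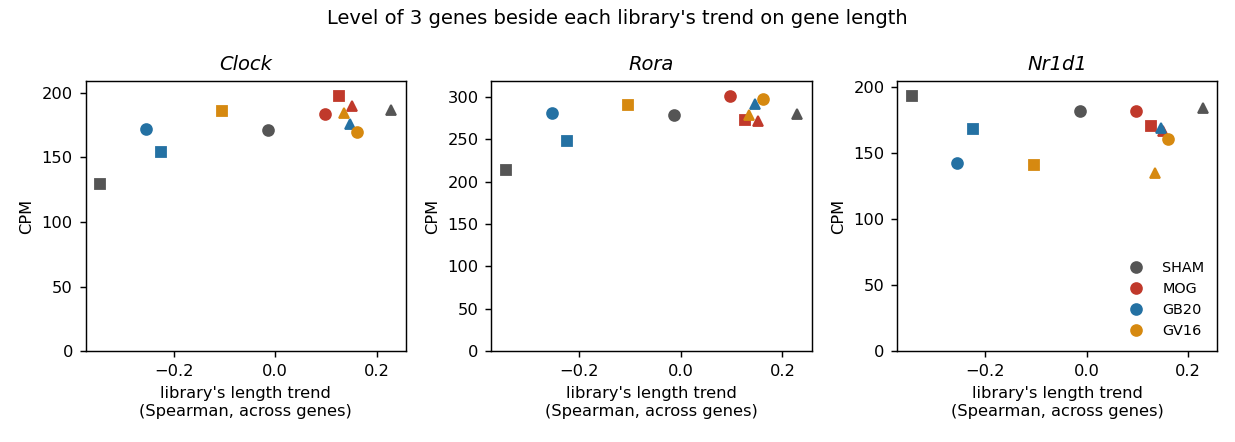
CPM (y axes, from 0) of Clock, Rora and Nr1d1 against each library's length trend (x axes), which is the Spearman correlation across genes between gene length and the gene's deviation from its mean; circles, squares and triangles are replicates 1, 2 and 3. SHAM replicate 2, at -0.345, has the lowest Clock (129.4) and Rora (214.1) and the highest Nr1d1 (192.8).

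The genes whose log2 CPM followed each member most closely across the 12 libraries, out of 16142 genes ranked by Pearson's r, are given as a description, since all share the same libraries and their scaling. They were Ehbp1 (0.881), Bnip2 (0.865) and Gm6710 (0.862) for Arntl, and Kmt2c (0.981), Tnrc6b (0.974) and Eml6 (0.972) for Clock. Nr1d1 was followed most closely by Myh11 (0.933), Wiz (0.918) and Sppl3 (0.909), and Nr1d2 by Fcho2 (0.915), Cdkn1b (0.881) and Pomt2 (0.871). For Rora they were Trps1 (0.962), Trove2 (0.958) and Ptpn4 (0.958), for Rorb A930033H14Rik (0.924), 4930534D22Rik (0.882) and Prr5l (0.851), and for Npas2 Slc39a8 (0.846), Slc25a23 (0.821) and Pdzrn3 (0.82). None of these 21 genes is a member of the group or of the list of other clock genes.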

How the data were processed

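Total RNA of 12 retinal libraries had been enriched for polyadenylated RNA and sequenced by the authors, who aligned the reads with HISAT2 2.0.5 to mm10 per the labels. Reads per gene were counted by the authors with FeatureCounts and deposited as raw counts. They also deposited FPKM values made from gene length and counts. The strand setting of the counting is not given in the sources used here. Groups and replicate numbers came from the sample labels. Names came from GENCODE vM21, which held 54409 of 54532 identifiers.

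The tests were run with edgeR 4.0.16 under R 4.3.3 (expression filter, TMM scaling, robust quasi-likelihood fit of all 12 libraries with 1 mean per group, 8 residual degrees of freedom, 2-sided). Genes with a p under 0.05 after Benjamini-Hochberg adjustment over 18299 genes were DEGs. CPM used the TMM library sizes. DESeq2 1.42.0, limma 3.58.1 (voom, and log2(FPKM + 1)), a replicate block and offsets for gene length were alternatives. The fit was tested on simulated data. Same-numbered libraries of GB20 and SHAM deviated together (correlations 0.111, 0.35 and 0.227, all over 0.1), those of the other comparisons not in every pair, so the blocked result is given beside GB20 vs. SHAM. Library pairs within a group differed by more than sampling noise (chi-square per gene 3.03 to 16.5). The 7 genes were all named, other clock genes only where called, up to 6 a comparison. Members, lists and ratios were chosen with earlier results of these data known. Promoter windows were searched on both strands.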

Additional observations from a re-analysis of the deposited data

How the results depend on the processing

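Of 42 differences (7 genes in 6 comparisons), 41 were called under 0 of the 24 alternatives. Nr1d1 in GV16 vs. SHAM was negative in all 24 and called in 15, with adjusted p from 0.000822 to 0.302 and values from -0.44 to -0.30 when 1 library was left out. It was lost in edgeR on the 6 libraries compared (-0.35, adjusted p = 0.105), in limma on log2(FPKM + 1) (-0.35, 0.217) and on log2(FPKM + 0.1) (-0.36, 0.208), and also without MOG replicate 2 or MOG replicate 3, which belong to neither group compared, so that the members called in that comparison numbered 0 in these settings and 0 to 1 when a library was left out. Replicate numbers met the criterion for pairing in GB20 vs. SHAM and in no other comparison. SHAM replicate 1 nevertheless correlated most closely with GB20 replicate 3. Of 18 same-numbered pairs over all comparisons 6 had a correlation of deviations over 0.1 (range -0.0988 to 0.35) and 9 were highest with their own number, all 3 of GV16 and SHAM among them (0.0607 to 0.12). With a replicate block Nr1d1 in GV16 vs. SHAM was -0.36 (adjusted p = 0.0159), and the other clock genes called numbered 1 in GB20 vs. SHAM and 3 in GV16 vs. SHAM, or 3 and 4 with length offsets added. The block changed no call of the 7 genes.

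Other clock genes called numbered 1 (GB20 vs. GV16), 2 (GB20 vs. SHAM) and 3 (GV16 vs. SHAM) with no filter on low counts, 1 (GB20 vs. GV16) and 2 (GV16 vs. SHAM) in DESeq2 on 12 libraries, 1 (GB20 vs. SHAM) in DESeq2 on 6 libraries, and 1 (GB20 vs. MOG), 0 (GV16 vs. MOG) and 0 (GV16 vs. SHAM) in limma on FPKM with either pseudocount. Leaving out 1 library gave 2 to 3 in MOG vs. SHAM, 2 to 7 in GB20 vs. MOG, 0 to 3 in GV16 vs. MOG, and 0 to 1 in GB20 vs. GV16, GB20 vs. SHAM and GV16 vs. SHAM. Ciart and Dbp in MOG vs. SHAM and Ciart in GB20 vs. MOG were called in all 24 alternatives. Over all genes the DEGs ranged from 71 to 539 in MOG vs. SHAM, 8 to 140 in GB20 vs. MOG, 6 to 73 in GV16 vs. MOG, 0 to 8 in GB20 vs. GV16, 6 to 282 in GB20 vs. SHAM and 9 to 395 in GV16 vs. SHAM. The cause of these shifts was not tested.

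Some differences changed sign, most of them close to 0 but Npas2 in GB20 vs. MOG from -0.30. Rora in GB20 vs. MOG was 0.0330 with length offsets and 0.0338 with the block added. Leaving out 1 library gave, in GB20 vs. SHAM, -0.0707 to 0.0197 for Arntl, -0.0970 to 0.153 for Clock, -0.0383 to 0.230 for Npas2, -0.0261 to 0.152 for Rora and -0.0315 to 0.153 for Rorb. It gave -0.13 to 0.11 for Rorb in GV16 vs. SHAM, -0.507 to 0.0188 for Npas2 and -0.0945 to 0.0230 for Rora in GB20 vs. MOG, and -0.0347 to 0.0191 for Nr1d2 and -0.0713 to 0.184 for Rorb in GB20 vs. GV16. Some correlations changed sign without the 2 libraries farthest from the median of the first gene named. They were Arntl with Nr1d1 (-0.255), Clock with Nr1d1 (0.0813), Nr1d2 (-0.468), Rora (-0.426) and Rorb (0.138), Npas2 with Nr1d2 (0.0469) and Nr1d1 with Rorb (-0.0912). As deviations from group means, Arntl with Nr1d2 (0.0769) and Rorb (-0.401), Npas2 with Nr1d2 (0.16) and Nr1d1 with Rorb (-0.0225) changed sign. With 3 libraries a group and standard errors of 0.067 to 0.25 on the log2 scale, small changes of single genes could not be detected.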
